A study of Mus musculus with 96 samples.

Results

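Olfactory receptor genes, whose symbols start with Olfr in the mouse, were examined in single horizontal basal cells (HBCs), the reserve stem cells of the olfactory epithelium (OE). An Olfr gene was taken as a gene with reads when it had 10 or more counts in at least 1 of the 96 cells, which held for 261 of the 1410 Olfr rows of the count table. The members were therefore chosen by the counts described here, and the counts are given as a description without a test. The HBCs came from wild type mice of 6 to 8 weeks, 2 days after injection of methimazole, a drug that strips the OE down to its basal layer. They were cultured after dissection, first on a coating of Tropoelastin and then on Fibronectin. The paper describes HBCs as quiescent-like on Tropoelastin and as activated on Fibronectin. The 2 daughters of each of 48 dividing cells were picked singly with their pairing noted, and polyadenylated RNA was sequenced per cell after addition of ERCC spike-in transcripts, which are synthetic RNAs of known amount. There was a single group. The labels named no mouse or culture for any cell, so the cells were treated as a single sample, intervals cover counting error only, and no treated or genotype comparison was possible.

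Olfactory receptors are G protein-coupled receptors of olfactory sensory neurons, and their genes form the largest gene family of the mouse genome, arranged in clusters on many chromosomes. Each mature neuron is known to transcribe a single receptor gene from a single allele, and immature neurons pass through a stage with low levels of several receptor genes. Before choice the clusters carry repressive histone marks, and Lhx2, Ebf factors and Ldb1 act at receptor enhancers. HBCs lie upstream of this lineage and are not olfactory neurons. A few receptors are also known from tissues outside the nose, among them Olfr78, Olfr558, Olfr16, Olfr544, Olfr1393 and Olfr2.

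The HBC markers Trp63, Krt5 and Krt14 had 10 or more counts in 96 of 96 cells, so the label was met by its defining genes. Between 11403 and 14632 genes were counted per cell, the gene counts summed to 29454150 to 44849003 per cell, and ERCC transcripts took 1.06% to 5.75% of the counts. Each library held a single cell, so no cell barcodes were shared between libraries, and 0 pairs of libraries had equal counts. Daughter 1 of pair 23 stood apart in the number of genes found in few cells (given below), and without it 253 Olfr genes had reads in place of 261.

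The size of a count sets what 10 counts mean. In 21715 genes with a single exon and a single transcript, a count equalled the covered bases divided by 75, rounded up, within 1 count in all 266324 values above 0, although the reads were 150 bases long. A read pair aligned in full thus gave 4 counts, the minimum of 10 counts stood for about 750 covered bases or 5 full reads, and a count of 1 could be part of a read. There were no molecular identifiers, so reads that are copies of the same molecule were counted separately.

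Short sequences show how closely parts of some Olfr genes resemble other genes. They were taken from GENCODE M21 transcripts on GRCm38, read 5′ to 3′ on the strand of the Olfr gene. The first set comes from a stretch in the untranslated part after the coding sequence of Olfr482 that nearly matches the transcript of a gene counted in most cells, Ramac. Each window holds 30 bases, and the capital marks the base that differs.
Olfr482 (chr7:108094550-108094579, minus strand): taccttggagagcGgggtggggtgcggcgg
Ramac, its transcript: taccttggagagcCgggtggggtgcggcgg

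The second set holds 30 coding bases around the conserved Asp-Arg-Tyr motif after the third membrane-spanning segment of the receptor, where G protein contact is known to occur, in members that lie side by side in the genome and were counted together. The capitals mark the codons of this tripeptide.
Olfr543 (chr7:102477473-102477502, minus strand): atggctctaGATCGCTATgtggccatttgc
Olfr544 (chr7:102484726-102484755, minus strand): atggctctaGATCGCTATgtggctatctgc
Olfr545 (chr7:102494381-102494410, minus strand): atggctctaGATCGCTATgtggctatctgc
Olfr1392 (chr11:49293674-49293703, plus strand): atggcttttGACCGCTATgctgctgtgtgt
Olfr1393 (chr11:49280501-49280530, plus strand): atggcttttGACCGCTATgttgctgtgtgt
In this window Olfr544 and Olfr545 had the same letters. The reads were 150 bases long, so a window of 30 bases does not show whether reads of these genes can be told apart. Over the whole coding sequences the identity was 90.9% between Olfr544 and Olfr545, 95.7% between Olfr1392 and Olfr1393, and 65.8% between Olfr543 and Olfr544.

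Most Olfr rows had no reads in these HBCs. Of the 1410 rows, 920 (65.2%) were at 0 in every cell, 229 had a highest count of 1 to 9, and 261 (18.5%) were members. Over all 55487 genes of the table, 48.0% had 10 or more counts in at least 1 cell, so the Olfr family was below the background of the table. A count of 0 in 96 cells allows a share of up to 3.125% of cells with a count. At the edge of the rule, Olfr933 was the single member with a highest count of 10, in daughter 2 of pair 14, and 5 rows just outside it had a highest count of 9 (Olfr1132, Olfr1279, Olfr138, Olfr319 and Olfr814).

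A member was usually found in a single cell. Of the 261 members, 209 (80.1%) had 10 or more counts in 1 cell only, 33 in 2 cells and 8 in 3 cells. Only 11 members were in 5 or more cells, and only Olfr77 and Olfr1388 in more than 14. Of all other genes with 10 or more counts in a cell, 21.0% were in 1 cell only, and 10373 were in 48 or more cells against 2 of the Olfr genes.

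**Figure D1:**
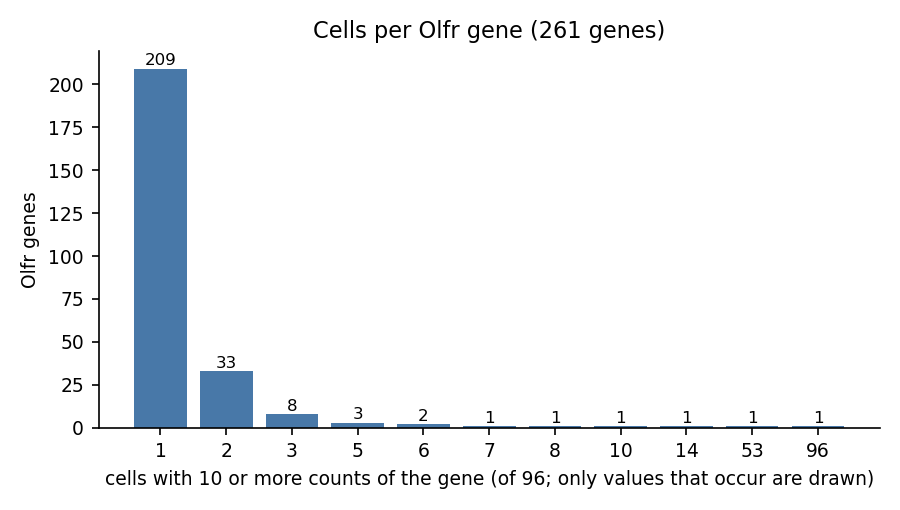
Number of Olfr genes (vertical axis) by the number of the 96 cells in which the gene had 10 or more counts (horizontal axis). The bar at 1 cell holds 209 of the 261 genes, and single genes stand at 53 and 96 cells.

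The 3 members found in the most cells held stretches that match other genes. Olfr77 (ENSMUSG00000051118, chr9:19916865-19929124, plus strand, protein-coding) was counted in all 96 cells, from 63 through a median of 134.5 to 603 counts. It was the only Olfr row counted in every cell, and its median level was 0.621 TPM, a unit scaled for transcript length and library size. Stretches of its longest transcript, of 9649 bases, matched transcripts of other genes counted in most cells, so its counts are uncertain.

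Olfr482 (chr7:108092999-108097586, minus strand) had 10 or more counts in 14 cells, with values of 10 to 27 in 13 of them and 130 in daughter 1 of pair 33. Bases 1032 to 2413 of its 2612-base transcript, directly after the coding sequence, matched Ramac at 98.7% identity over 1385 bases in the same orientation. Ramac, which encodes an activating subunit of the mRNA cap methyltransferase, had a median of 1151 counts. Across the 96 cells, which share these matched bases and differ in depth, Spearman's rho was 0.393 between Olfr482 and Ramac.

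Olfr1388 (chr11:49436624-49446103, plus strand) reached 10 counts in 53 cells, with a lowest value of 0, a median of 12 and a highest of 87. Its 3034-base transcript matched 6 other genes, of which Efr3a was counted in most cells (median 4522 counts), over 206 bases at 97.6% identity. Its rho with Efr3a was -0.04. The files do not show from which bases of a transcript the reads of these 3 members came, and the part of the matched stretches in their counts was not tested. Values are therefore given with and without Olfr77, Olfr1388 and Olfr482, a choice made after their values were seen.

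**Figure D2:**
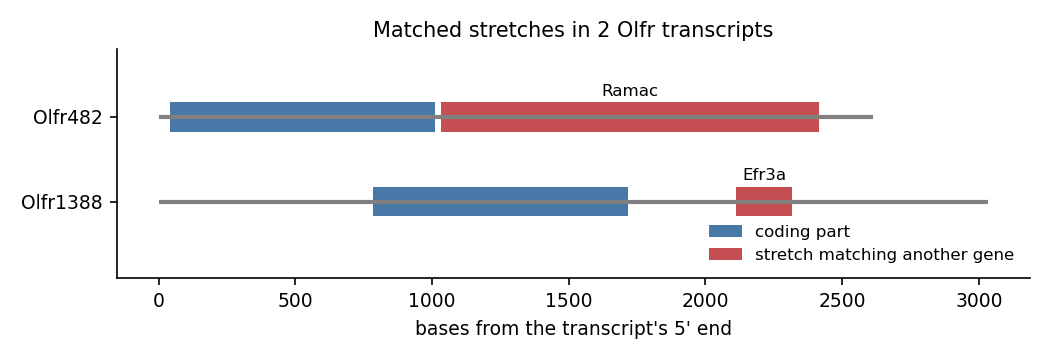
Coding part (blue) and the stretch matching a gene counted in most cells (red) along the transcripts of Olfr482 and Olfr1388, in bases from the 5′ end. In both transcripts the matched stretch lies after the coding part, at bases 1032 to 2413 in Olfr482.

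Stretches matching a gene counted in most cells were uncommon in the family. A match was a stretch of 150 or more bases at 97% identity or more to a transcript of another gene. Matches to non-Olfr genes with a median of 10 or more counts were found in 10 of 261 members (3.83%). They were found in 18 of the 1149 other Olfr rows (1.57%). Matches to any non-Olfr gene, whatever its counts, were found in 31 members (11.9%) and 54 other rows (4.70%). A median over the cells leaves out matched genes counted in few cells. A stretch of this kind shared with another Olfr gene was found in 49 members (18.8%) and 163 other rows (14.2%), so the counts of these members could be split among copies and are uncertain.

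The next members were sparse and uneven. Olfr1372-ps1, a transcribed pseudogene on chromosome 11 (chr11:52154722-52168159, minus strand), had 10 or more counts in 10 cells. These were 1616, 1405, 1327 and 1276 in 4 cells, 448, 317 and 170 in 3 cells, and 37, 33 and 27 in the last 3. The 10 cells came from 10 different pairs, and every sister had 3 counts or fewer. Olfr543 was in 8 cells with 65, 75, 152, 195, 307, 555, 663 and 902 counts, and its highest level per length was 32.9 TPM. Olfr544, a receptor also known from adipose tissue and liver, was in 7 cells with 16, 51, 120, 139, 341, 386 and 1174 counts and a sister at 0 in each case. Olfr456 was in 6 cells with 18 to 705 counts, Olfr373 in 5 with 24 to 848, Olfr1442 in 5 with 14 to 310, and Olfr545 in 5 with 15 to 399.

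**Figure D3:**
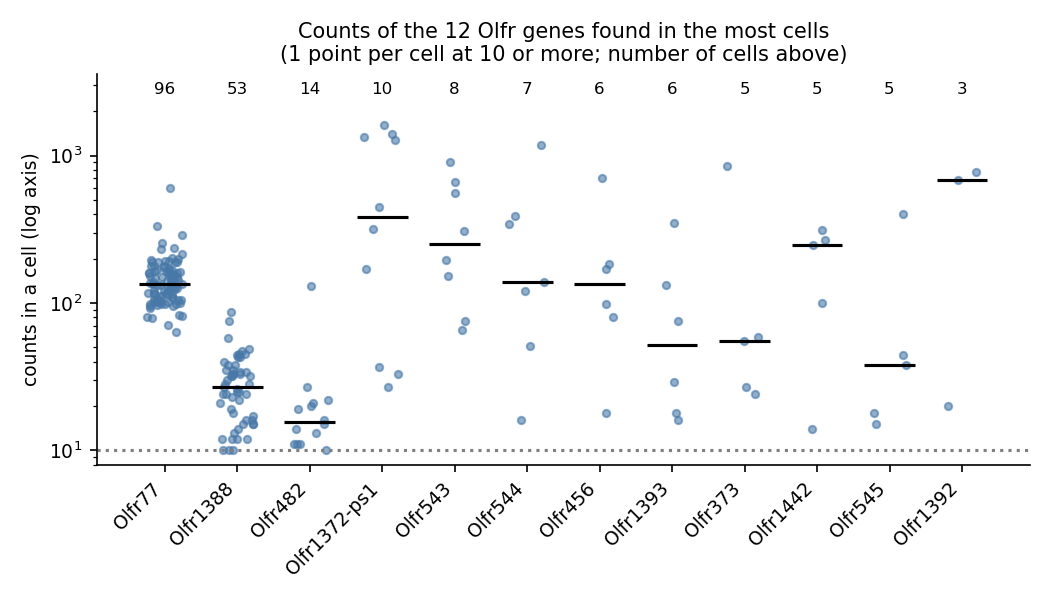
Counts (log axis) of the 12 Olfr genes found in the most cells, with 1 point for each cell at 10 or more counts, a line at the median of those points and the number of cells above. Olfr77 forms a narrow band in all 96 cells, whereas Olfr1372-ps1 spreads from 27 to 1616 counts in 10 cells.

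Of the 12 values of 1000 or more counts outside the 3 broad members, 4 belonged to Olfr1372-ps1 and 1 to Olfr544, given above, and the others to genes found in 1 or 2 cells. Olfr1431 had 1915 counts (29.3 TPM) in daughter 1 of pair 21 and 5 in its sister. Olfr1446 had 1469 counts (48.3 TPM) in daughter 2 of pair 48 and 3 in its sister. Olfr958 had 1257 counts in daughter 1 of pair 5 and Olfr1346 had 1208 in daughter 1 of pair 37, with both sisters at 0. These 4 genes were in a single cell each. Olfr1512 (1267 and 317 counts), Olfr527 (1229 and 286), Olfr648 (1133 and 44) and Olfr791 (989 and 142) were each in 2 cells. Per length, Olfr527 had the highest value of these, at 65.2 TPM. None of the 8 had a stretch matching a non-Olfr gene counted in most cells. Olfr648 matched 1 non-Olfr gene that was not counted in most cells.

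Without the 3 broad members, 351 values of 10 or more counts remained over 258 members, with a median of 100 counts. Of these, 174 were below 100 counts and 177 at or above it, 12 of them at 1000 or more. For scale, ERCC transcripts that reached 10 counts in 1 to 10 cells, as these members did, gave 143 values over 32 transcripts. Their median was 287 counts and their highest 2570.

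Of the 6 receptors known outside the nose, 3 were members, beside 18.5% of all Olfr rows. Olfr544 was in 7 cells. Olfr1393, known from the kidney, was in 6, with 16, 18, 29, 75, 132 and 350 counts. Olfr78, a receptor for short-chain fatty acids in kidney, vessel and carotid body, had 149 counts in daughter 2 of pair 18 and was in no other cell at 10 counts. Olfr16 had a single count in 1 cell, and Olfr558 and Olfr2 were at 0 in all cells.

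Every cell had at least 1 member, and most had several. The number of members per cell ran from 1 through a median of 5 to 18. Without Olfr77, Olfr1388 and Olfr482, the median was 3 and the range 0 to 15: 89 of 96 cells (92.7%, exact 95% interval 85.55 to 97.02) had a member, 79 cells (82.3%, 73.2 to 89.3) had at least 2, 10 cells had 1 and 7 cells had none. All Olfr members together took a median of 20.4 counts per 1000000 gene counts in a cell, and 15.8 without the 3 broad members, with a range of 0.139 to 130. The member with the highest count took 50% or more of the summed count of the 258 members in 64 of 96 cells, and 90% or more in 8. The 96 cells include the 10 with 1 member and the 7 with none at 10 counts. No like share was taken for other genes found in few cells.

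Some cells had many members. Daughter 1 of pair 23 had 18 members, 15 of them outside the 3 broad ones, the highest of which was Olfr15 at 749 counts. It also had 1484 other genes that reached 10 counts in only 1 to 14 cells, against a median of 410 over all cells, and the largest number of genes counted, 14632. Daughter 2 of pair 9 had 14 members, and daughter 1 of pairs 30 and 47 had 13 each. Across the 96 cells, which were sequenced together and share a spike-in, the number of members outside the 3 had a Spearman's rho of 0.414 with the number of other rarely counted genes, 0.368 with genes counted, -0.217 with the ERCC share and -0.118 with the gene counts. Without daughter 1 of pair 23, these were 0.395, 0.348, -0.191 and -0.093, and the median stayed at 3 members. The part of depth and RNA content in the number of members was not tested.

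Sets of cells differed as well. File names placed the cells in 12 sets of 8, whose handling is not described. The median number of members outside the 3 was 1.5 in set 2 (range 0 to 2) and 5 in set 5 (range 0 to 7), and lay between these in the other sets.

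Outside the 3 broad members, few values of 10 or more counts came with the same gene in the sister, and most could not. Over all members, 514 gene and cell values reached 10 counts, and in 144 of these (28.0%, exact 95% interval 24.2 to 32.1) the sister also reached 10. Olfr77 was at 10 or more in both sisters of all 48 pairs, and Olfr1388 in both sisters of 17 pairs and in only 1 sister of 19. Without these and Olfr482, 12 of 351 values (3.42%, 1.78 to 5.90) had the gene in the sister, which came from 6 genes in 6 pairs. Counting any read in the sister raised this to 29 values (8.26%). Of the 351 values, 209 belong to members in 1 cell, whose sister is below 10 counts by definition. The 3.42% is therefore low in part by the way members in 1 cell are defined. For Olfr genes in 2 to 14 cells, Olfr482 among them, 14 of 156 values (8.97%) had the gene in the sister. Other genes are set beside this below. A gene at 10 or more counts in both sisters enters these values once per sister. The 144 and 12 values are thus 72 and 6 combinations of gene and pair. The intervals treat the values as independent and do not allow for this.

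In detail, Olfr527 had 1229 counts in daughter 1 of pair 15 and 286 in daughter 2. Olfr543 had 902 and 307 counts in the daughters of pair 22, and Olfr1258 had 374 and 81 in pair 9. These 3 were above 80 counts in both sisters. Olfr1393 had 132 and 75 counts in pair 32, Olfr1442 had 248 and 14 in pair 30, and Olfr784 had 20 and 26 in pair 43. Olfr482, of the 3 broad members, had 11 and 20 counts in pair 3. Both cells with Olfr527 and both with Olfr1258 were sisters, so neither gene reached 10 counts outside its pair.

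**Figure D4:**
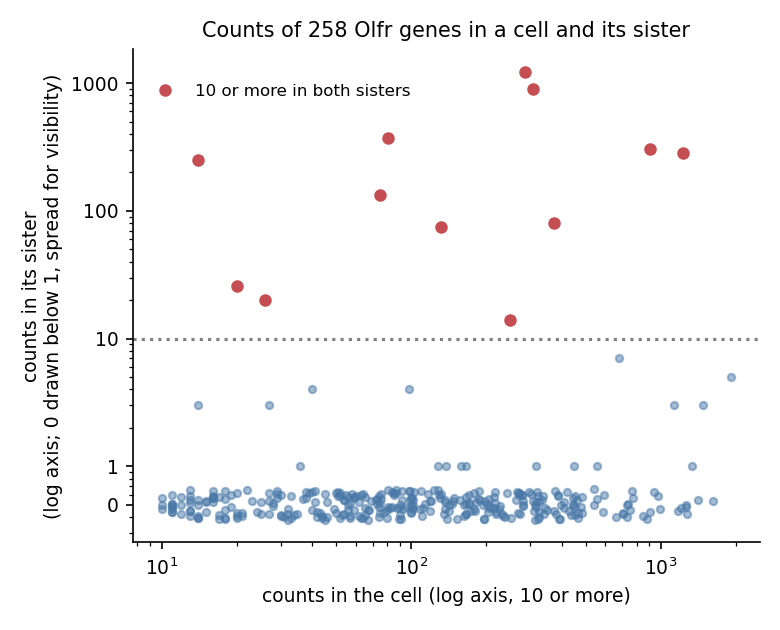
Counts of 258 Olfr genes in a cell (horizontal log axis, 10 or more) against the counts of the same gene in its sister (vertical log axis, 0 drawn below 1 and spread for visibility), without Olfr77, Olfr1388 and Olfr482. Red points, 12 values from 6 pairs, are at 10 or more in both sisters, and most of the others sit at 0 in the sister.

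A member in a single cell has a sister below 10 counts by definition. Of the 209 such members, 6 (2.87%) had any count in the sister, against 3.95% of 5540 other genes found in a single cell. Of these 6 members, 5 had 100 or more counts in the cell. Outside the 3 broad members, a pair of sisters shared a member in 6 of 48 pairs (12.5%, exact 95% interval 4.73 to 25.2). Cells of the same set that were not sisters did so in 13 of 288 combinations (4.51%) and cells of different sets in 179 of 4224 (4.24%), where each cell enters many combinations. The value for sisters rests on 6 pairs. Its interval begins at 4.73%, close to the 4.51% and 4.24% of the other combinations, and no test was run.

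Sharing was also counted for other genes found in few cells. For genes in 2 to 14 cells, the sister held the gene in 14 of 156 values (8.97%) for Olfr genes and in 9.77% of 38502 values for other genes, where 33 of the 50 Olfr genes but 2167 of the 7484 other genes were in exactly 2 cells. For genes in exactly 2 cells these were 4 of 66 (6.06%) and 2.17%, and for genes in 3 cells 2 of 24 (8.33%) and 3.72%, with few Olfr values in each. The number of members in the 2 sisters of a pair, without the 3, had a Spearman's rho of 0.366 over 48 pairs (Pearson's r 0.143), and 0.436 without pair 23.

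Members were spread over the genome in about the proportions of the family. They lay on 17 of the 19 chromosomes that carry Olfr rows, led by chromosome 2 (63 of 373 rows), chromosome 7 (54 of 293), chromosome 9 (35 of 173) and chromosome 11 (22 of 104). With rows under 1 Mb apart joined into clusters, all 23 clusters of 10 or more rows had a member, and the share of members had a lowest value of 6.67%, a median of 18.9% and a highest of 47.4%. The highest share was in a cluster on chromosome 11 (chr11:48978889-49565859) with 9 members of 19 rows, among them Olfr1388, Olfr1392 and Olfr1393. The cluster on chromosome 7 with Olfr78 and Olfr543 to Olfr545, which holds the fish-like class I receptors, had 31 members of 156 rows (19.9%), against 18.3% of all other Olfr rows.

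Transcript length and distance to other genes differed between members and the rest of the family. The rule did not name them, but its minimum of 10 counts, about 750 covered bases, was not scaled for length. The share of members by length is therefore not independent of the rule. The longest annotated transcript had a median of 3356 bases in members and 2306 in the other rows, and the share of members rose from 9.63% of rows with transcripts of 85 to 1190 bases to 30.9% of rows with transcripts of 3792 to 15582 bases. The nearest non-Olfr gene with a median of 10 or more counts was a median of 241 kb away from members and 386 kb from the other rows. Of the rows under 20 kb from such a gene, 32.1% (18 of 56) were members, against 14.5% (115 of 793) of those at 300 kb or more, where the median transcript lengths were 2947 and 2476 bases. No member overlapped such a gene. Members made up 20.8% of 1138 coding genes and 18.8% of 16 transcribed unprocessed pseudogenes. They made up 8.00% of 200 unprocessed pseudogenes and 8.93% of 56 polymorphic pseudogenes, which are intact in some mouse strains only. The part of transcript length in these shares was not tested.

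**Figure D5:**
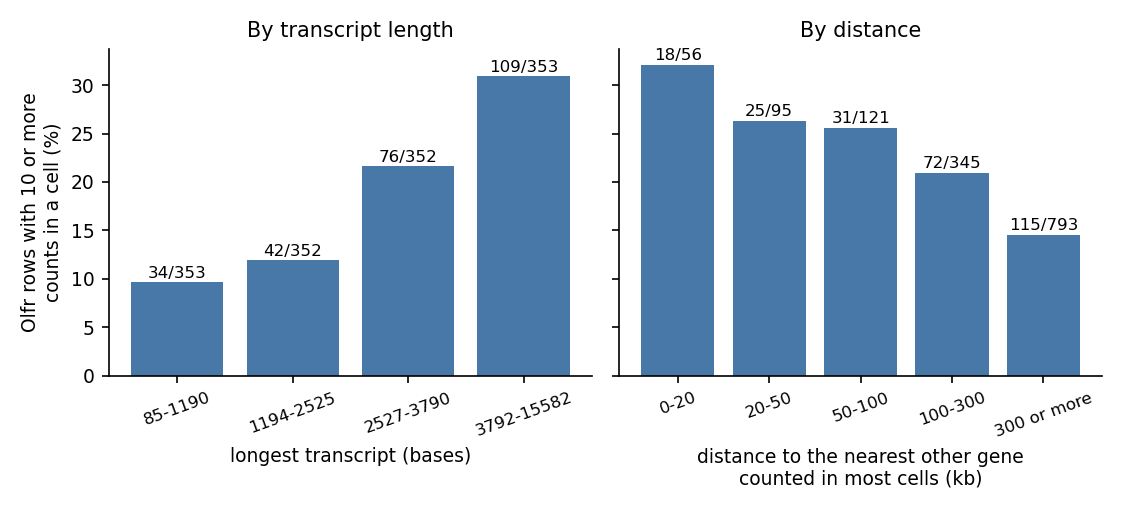
Share of Olfr rows with 10 or more counts in a cell (vertical axis, percent) by the length of the longest transcript (left, 4 classes of about equal size) and by the distance to the nearest non-Olfr gene with a median of 10 or more counts (right, kb), with members and rows above each bar. The share rises from 9.63% to 30.9% with length and falls from 32.1% to 14.5% with distance.

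Of the 11 members in 5 or more cells, 4 lay over 100 kb from such a gene: Olfr77 (267 kb), Olfr1388 (174 kb), Olfr482 (141 kb) and Olfr456 (113 kb). Others lay nearer. Olfr543, Olfr544 and Olfr545 lie next to each other 6.81, 12.3 and 21.7 kb from Rrm1, which encodes the large subunit of ribonucleotide reductase and had a median of 13816 counts. Olfr1393 and its neighbour Olfr1392, which was in 3 cells, lie 15.3 and 22.2 kb from Mgat1, an enzyme of N-glycan synthesis with a median of 1129 counts. Olfr1372-ps1 lies 26.9 kb from Ppp2ca (median 3713 counts), Olfr1442 16.5 kb from Glyat (median 738 counts), and Olfr373 27.1 kb from Tpm4 (median 12125 counts). Rrm1 and Ppp2ca lie on the opposite strand to the Olfr genes named beside them. Mgat1, Glyat and Tpm4 lie on the same strand as theirs. The part of these neighbours in the Olfr counts was not tested.

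Most neighbouring members were never counted in the same cell, but a larger share of them was than of all combinations. Among the 258 members outside the 3, 206 combinations of 2 genes lay within 100 kb of each other, and 25 of these (12.1%) were counted together in at least 1 cell, against 2.46% of all 33153 combinations. Leaving out neighbours that share a stretch of 97% identity, 21 of 198 (10.6%) were. Within 1 Mb, the share counted together was 3.81% of 1261 combinations. Without daughter 1 of pair 23, the 12.1% became 10.7% and the 2.46% became 2.14%. Combinations that share a gene or a cell are not independent, and no test was run.

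In daughter 2 of pair 27, Olfr543, Olfr544 and Olfr545 had 555, 51 and 399 counts, and all 3 were at 0 in the sister. Daughter 1 of pair 14 had 1174 counts of Olfr544 and 44 of Olfr545, and daughter 2 of pair 46 had 663 of Olfr543 and 15 of Olfr545. These genes also occurred alone, as Olfr543 did in daughter 2 of pair 6 with 195 counts. In daughter 1 of pair 32, Olfr569, Olfr570 and Olfr571 had 205, 173 and 460 counts, and Olfr570 lies on the opposite strand to the other two. Olfr1392 and Olfr1393 were counted together in 3 cells, with 768 and 16 counts in daughter 2 of pair 21, 679 and 75 in daughter 2 of pair 32, and 20 and 29 in daughter 2 of pair 9, and a shared stretch of 711 bases at 97.3% identity leaves the division of reads between these 2 uncertain. The same holds for Olfr55 and Olfr239, which share 3774 bases at 99.4% identity and had 101 and 25 counts in daughter 1 of pair 23.

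The other chemoreceptor families ranged from no row with reads to a larger share than the Olfr family. Of the vomeronasal receptors, 56 of 351 Vmn1r rows (16.0%) and 73 of 242 Vmn2r rows (30.2%) had 10 or more counts in a cell. Of those, 51 Vmn1r rows and 56 Vmn2r rows were in a single cell, and the broadest were in 3 and 12 cells. Among bitter taste receptors, 5 of 40 Tas2r rows passed, and 0 of 16 trace amine-associated receptors (Taar) did, of which 10 had a highest count of 1 to 9. The sweet and umami receptors (Tas1r) gave 1 of 3 rows, in 4 cells, and the formyl peptide receptors (Fpr) 1 of 8, in 1 cell.

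Most genes that act with receptors in olfactory neurons were in few cells or none. The background for this list and those below is all genes of the table. Of these, 40.7% were at 0 in every cell and 48.0% reached 10 counts in a cell. The 4 of 12 signalling genes at 0 are no larger a share than this 40.7%. All the others of the 12 reached 10 counts in a cell, a larger share than the 48.0%. By these measures the signalling list was not below the background. Of 12 signalling genes of olfactory neurons, Cnga2, Cnga4, Stoml3 and Slc24a4 were at 0 in all cells. Omp, the defining marker of mature neurons, reached 10 counts in 2 cells. It had 179 counts in daughter 1 of pair 4 and 39 in daughter 1 of pair 10. Those cells held 1 and 5 members outside the 3. The channel subunit Cngb1 and the G protein subunits Gng8 and Gng13 were each in 1 cell and the chloride channel Ano2 in 2, while Gnal, the olfactory G protein alpha subunit, was in 19. Adcy3 (71 cells) and Ric8b (63 cells) were broad, and both are also used outside olfactory neurons. Rtp1 and Rtp2, which carry receptors to the cell surface, were at 0 in every cell, and Reep1 was in 18.

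Genes of receptor choice were split by kind. Lhx2 reached 10 counts in a single cell (31 counts), as did Ebf4 (619 counts), Ebf1 was at 0, Ebf2 and Ebf3 did not pass 2 counts, and Emx2 was in 5 cells. General chromatin genes of the list were broad: Ehmt1, Cbx5 and Lbr were in all 96 cells, Setdb1 in 95, Kdm1a in 94, Suv39h1 in 88 and Ldb1 in 85. Atf5, a stress-response factor that receptor translation induces in neurons, was in 60. In total 10 of the 18 genes were in 48 or more cells.

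Neuron lineage genes were likewise sparse at the early steps, with Neurod1 in 1 cell, Dcx in 2, Kit at 0 and Neurog1 at 1 count at most, whereas Tubb3 (53 cells) and Ncam1 (61 cells) were broad and Gap43 was in 13. The summed count of these 7 genes had a median of 551 (range 4 to 9653) in the 32 cells with 0 to 2 members outside the 3, 1062 (0 to 10109) in the 47 cells with 3 to 5, and 2051 (14 to 8672) in the 17 cells with 6 or more, with overlapping ranges. Tubb3 and Ncam1 were the only genes of the list with a median above 0 over the 96 cells, and the part of such genes in the number of members was not tested. For the 12 signalling genes the medians were 1409 (3 to 4938), 1183 (4 to 7201) and 1329 (2 to 4257). Adcy3 and Ric8b were the only ones of these genes with a median above 0 over the 96 cells. For the 18 genes of receptor choice the medians were 27300 (10819 to 60530), 32813 (4399 to 56886) and 34421 (14036 to 48282). The largest medians of single genes in that list were those of Cbx5 (11784) and Lbr (6828), while Lhx2, Emx2 and all Ebf genes had a median of 0. The 3 HBC markers had medians of 235115, 255497 and 265118 in the same classes.

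Markers of other cells of the OE were in few cells. Of 4 genes each, 2 sustentacular, 1 microvillous and 2 ensheathing glia genes were at 0 in all cells. The others of these lists were in 1 to 8 cells. Of all genes of the table, 40.7% were at 0 in every cell and 48.0% reached 10 counts in a cell. The numbers of marker genes at 0 or at 10 counts therefore do not set these lists apart. Of the 4 immune genes, Ptprc was in 3 cells, Lyz2 in 2, and Csf1r did not pass 1 count, while Cd68, a lysosomal protein also made outside the immune system, was in 57. The immune sum, which Cd68 carries, had medians of 9.5 (range 0 to 11064), 36 (0 to 3733) and 356 (0 to 3286) in cells with 0 to 2, 3 to 5 and 6 or more members, and its part in the number of members was not tested. Of the endothelial genes, Pecam1 was in 5 cells and Cdh5 was at 0.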

How the data were processed

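Per the labels and the study's methods, the authors trimmed reads with Trimmomatic 0.39, aligned pairs to GRCm38 (Ensembl release 100) with STAR 2.7.11a and quantified genes with StringTie 2.2.1. Libraries followed the G&T-seq protocol with 18 PCR cycles and a kit that does not mark strand. The deposited table holds gene counts, not normalized, for 55487 genes and 92 ERCC transcripts in 96 cells. Deposited tables per cell hold TPM and coverage (mean signal per base) by the authors. Cells were matched by library name. The members and lists were chosen with earlier results of these data known. Shares have exact Clopper-Pearson intervals at 95%, and a count of 0 is given the limit of 3 counts. All 1410 Olfr rows had the same start and end in GENCODE M21. Transcripts were compared with BLAST 2.17.0 (megablast, identity of 97% or more, 150 bases or more, up to 500 targets), and coding sequences aligned with Biopython 1.88. Tables were made with Python 3.11.15, pandas 2.3.3 and scipy 1.17.1. The count of sharing between sisters was tested on simulated data. Genes named were the 10 members in the most cells, the 10 with the highest count in a cell, those in both sisters of a pair, receptors known outside the nose, rows at the threshold, marker lists and nearest genes; Olfr15, the members of the neighbouring combinations and of the chromosome 11 cluster were named after their values were seen. Alternatives were other count minimums, 2 scalings, TPM, and leaving out rows, sets of cells, a pair or a cell. A gene of the neuron lineage list and a matched gene are not reported here.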

Additional observations from a re-analysis of the deposited data

How the results depend on the processing

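The number of Olfr genes with reads was 490 at a minimum of 1 count and 145 at 100 counts, against 261 at 10, and stayed between 187 and 281 under 22 other alternatives. The median per cell was 29 at 1 count, 2 at 100 counts and 2 at a TPM of 1 or more, against 5, and 3 to 5 under the rest. Sharing between sisters was 28.0% of values, 37.4% at 1 count, 35.0% with any count in the sister, 12.1% without rows overlapping another gene, 2.48% at a TPM of 1 or more and 3.42% without Olfr77, Olfr1388 and Olfr482. Olfr77 and Olfr482 are among the overlapping rows, and Olfr77 had a median TPM of 0.621. Of the members counted together, 3.07% lay within 100 kb (0.621% of all combinations) and 5.90% within 1 Mb (3.80% of all combinations), while the share of neighbours counted together fell from 12.1% to 3.81%. ERCC and library total scaling gave 262 and 260 genes. Leaving out each set of 8 cells gave 230 to 255 genes and 27.0% to 28.9% sharing. Leaving out the 3 members or daughter 1 of pair 23, and the distance of 1 Mb, were chosen after the data were seen. At 1 count, 9 rows that are no members were counted in 48 or more cells at 4 counts or fewer. The depth does not tell a gene at 0 from a gene whose few molecules were not captured.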
